A study of Arabidopsis thaliana with 4 samples.

Results

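Class III peroxidases are secreted haem enzymes of plants. The 60 Arabidopsis thaliana loci described here are those listed as outside root hairs, a label not checked here, with 13 others set aside. They were listed by locus identifier, without a threshold on measured values though with earlier results of these data known, and 45 of the 60 were measured by a probe set that names that gene alone, out of 13286 genes named in this way and 22746 probe sets tested. The question was how their transcripts differ between the salt-treated rsa3-1 mutant and its salt-treated wild type. Values come from 4 Affymetrix ATH1 arrays, on which a set of short probes reports on each transcript. Of these, 2 arrays carried wild type RNA and 2 carried rsa3-1 RNA, and the design text calls them biological replicates. All seedlings were 6 days old, had the background Columbia gl1 with an RD29A::LUC transgene (luciferase behind a stress-responsive promoter), and had spent 24 h at 120 mM NaCl. RNA was taken from whole seedlings, so all organs are mixed, and there were no unsalted arrays in the comparison. The mutant is 1 allele of RSA3, a xyloglucan galactosyltransferase also called MUR3. No probe set was named for RSA3 alone, so its transcript was not analysed here.

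Class III peroxidases act in the cell wall and the vacuole. With hydrogen peroxide they couple phenolic compounds, which polymerises lignin and suberin and cross-links wall proteins and stiffens the wall. In another cycle they make reactive oxygen themselves, which can loosen the wall and feeds the oxidative burst of defence. The family has grown by duplication, so many members lie side by side on a chromosome and share much of their sequence. Many are mainly expressed in roots. NADPH oxidases supply the superoxide from which the hydrogen peroxide is formed, and the monolignol pathway supplies the phenolic substrates.

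Each of the 45 measured genes has 1 probe set. Another 6 loci share 3 probe sets, 1 for each of the neighbouring pairs AT4G37520 and AT4G37530, AT2G18140 and AT2G18150, and AT2G38380 and AT2G38390. For the remaining 9 loci the platform annotation names no probe set, and they were not analysed here. They are AT1G05240, AT1G05250, RCI3 (AT1G05260), PER4 (AT1G14540), AT3G32980, PRXCA (AT3G49110), PRXCB (AT3G49120), PA2 (AT5G06720) and PER64 (AT5G42180). The annotation names a single gene for only part of the 22746 probe sets, so these 9 loci may have a signal on an unnamed one. Members of this group are well known from other work, PRXCA and PRXCB for the oxidative burst and PER64 for the Casparian strip of the endodermis. Gene names are those of RefSeq (TAIR10.1), and members with no name there are given by locus.

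The arrays had medians between 6.47 and 6.52 on the log2 scale of RMA (robust multi-array average) and lowest values between 2.57 and 2.61. Of 45 bacterial and phage control probe sets, 44 were highest in wild type replicate 1, where their median was 7.94 against 7.22 to 7.34 on the other arrays. That array therefore stands apart in its controls. Without it 5 members turned the sign of their difference, and these lay between -0.11 and 0.07 with all arrays. There are no detection calls, and values near the bottom of the scale may be background. Of the 45 members, 11 had a mean below 5.

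No measured class III peroxidase passed at an adjusted p under 0.05, 0 of 45, where 1.13% of all 22746 probe sets did, 0.659% higher and 0.466% lower in rsa3-1 (limma, Benjamini-Hochberg over all probe sets). At an unadjusted p under 0.05 there were 11 members, 7 with a higher and 4 with a lower value in rsa3-1. That is 24.4% of the members, beside 9.68% of all probe sets, of which 4.63% were higher and 5.05% lower. The arrays of the 2 genotypes did not overlap for 25 members, 12 higher and 13 lower in rsa3-1, which is 55.6% beside 38.6% of all probe sets (17.8% higher and 20.9% lower). Differences lay on both sides of 0, with 23 members above it, or 51.1% beside 47.1% of all probe sets, and 22 below it. The median log2 difference (rsa3-1 minus wild type) over the members was 0.02, against -0.01 over all probe sets. The median size of the difference, without its sign, was 0.145 for the members and 0.0930 for all probe sets. The median standard errors were 0.110 and 0.109. All standard errors (SE) here are limma's moderated ones, drawn toward a value shared by all probe sets. The medians of the SE are thus alike in part by construction. These shares describe the list and were not tested. In whole seedlings, fewer cells that express a gene and less RNA per cell cannot be told apart.

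**Figure D1:**
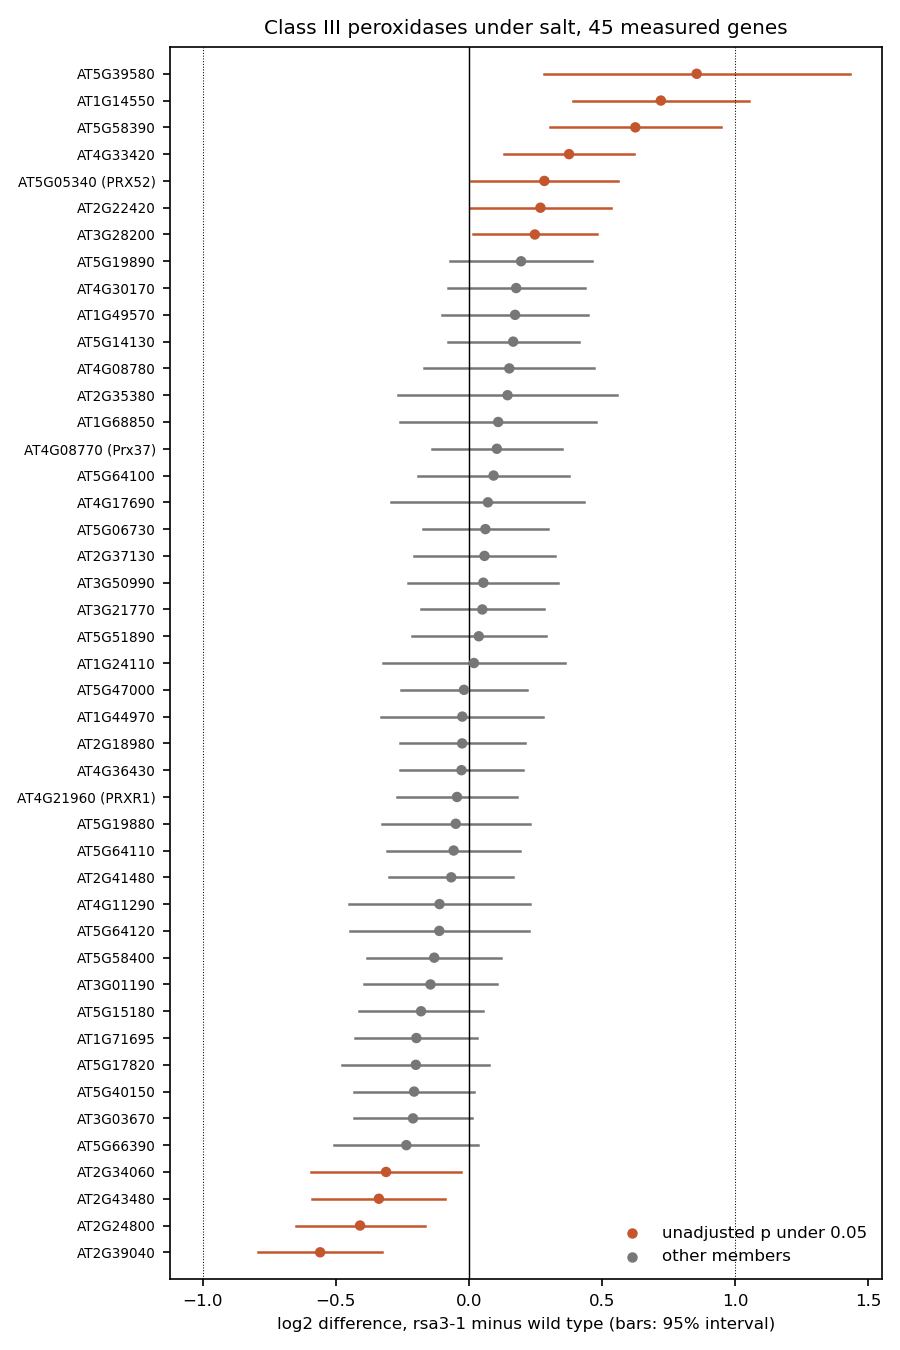
Log2 difference (rsa3-1 minus wild type, horizontal axis) of each of the 45 measured class III peroxidases, with 95% intervals from limma as bars, 2 arrays per genotype. Dotted lines mark a 2-fold difference either way; 11 members have an unadjusted p under 0.05, from 0.86 for AT5G39580 to -0.56 for AT2G39040.

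**Figure D2:**
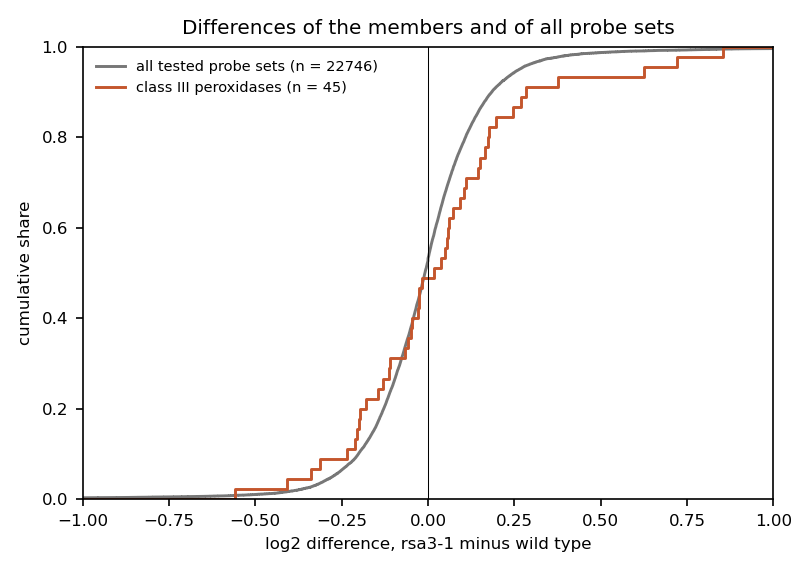
Cumulative share (vertical axis) of log2 differences between rsa3-1 and wild type for the 45 members and for all 22746 tested probe sets; differences beyond 1 either way are off the axis. Both curves cross the middle near 0, with medians of 0.02 and -0.01. The members' curve is wider in its middle part, with quartiles of -0.13 and 0.15 against -0.10 and 0.08. The extremes go the other way, from -0.56 to 0.86 for the members and from -2.19 to 4.19 for all probe sets.

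The intervals, 1 for each gene and not adjusted for their number, bound the differences. For 43 of 45 members, or 95.6%, the 95% interval of the difference lay within 2-fold either way, beside 98.7% of all probe sets. For 37 members, or 82.2%, it lay within 1.5-fold, beside 91.5% of all probe sets. The members whose intervals reach past 2-fold are AT5G39580 and AT1G14550, both toward higher values in rsa3-1. The 34 members with an unadjusted p of at least 0.05 had log2 differences between -0.24 and 0.20. The intervals of these 34 lay between -0.506 and 0.555.

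Among the members listed for defence and the oxidative burst, from background knowledge of the family, 3 of 6 were measured. AT5G39580 read 6.71 and 5.89 in wild type replicates 1 and 2 and 7.02 and 7.29 in rsa3-1 replicates 1 and 2. Both mutant arrays were above both wild type arrays, but the wild type arrays lay further apart than for any other member, with an SD of 0.58 (n = 2). Its log2 difference was 0.86 ± 0.25 (SE), or 1.81-fold with a 95% interval from 1.21 to 2.69 (unadjusted p = 0.0094, adjusted p = 0.28). That moderated SE is smaller than this gene's own arrays alone would give. The size of the difference rests on which wild type array is used. Without wild type replicate 1 the difference was 1.27, and without wild type replicate 2 it was 0.44. With 1 wild type array left, the wild type spread drops out and only the rsa3-1 pair and other probe sets set the error.

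AT1G14550, the neighbour of PER4, which has no named probe set, had the second largest increase in value. It read 5.53 and 5.21 in wild type against 6.21 and 5.97 in rsa3-1, so the genotypes were apart by more than either pair of arrays differed within itself. The means were 5.37 ± 0.23 and 6.09 ± 0.17 (SD, n = 2 each). The log2 difference was 0.72 ± 0.14 (SE), or 1.65-fold with a 95% interval from 1.31 to 2.07 (unadjusted p = 0.0012, adjusted p = 0.081). It passed when the arrays were quantile normalized again (adjusted p = 0.043) or set to a common median (adjusted p = 0.035), at differences of 0.74 and 0.73. Those were 2 of 10 alternative settings. Among the rest, the adjusted p was 0.059 with probe sets of a mean under 5 left out and 0.12 with the replicate number as a block. With each array left out the difference ran from 0.56 to 0.88. The remaining measured gene of this list is PRX71 (AT5G64120), an enzyme of lignin and wall stiffening that also responds to wall damage. It read 7.98 and 7.86 in wild type against 7.61 and 8.01 in rsa3-1, where the mutant arrays enclosed the wild type ones, and its log2 difference was -0.11 (95% interval -0.45 to 0.23).

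Of 12 members listed for the polymerisation of lignin or the Casparian strip, 8 were measured. Of these 8, 0 passed, where 1.13% of all probe sets did. The log2 differences of the 8 ran from -0.24 to 0.38 with a median of 0.004, 4 above and 4 below 0. At an unadjusted p under 0.05 there were 3 of 8, all with higher values in rsa3-1, where 9.68% of all probe sets had such a p and 4.63% were higher. AT4G33420 read 7.84 and 8.00 in wild type against 8.26 and 8.34 in rsa3-1, a log2 difference of 0.38 ± 0.10 (SE; adjusted p = 0.26). Its mutant arrays were both above the wild type ones by more than either pair differed within itself. PRX52, which takes part in lignifying the fibres of the stem, read 5.31 and 5.47 in wild type against 5.77 and 5.57 in rsa3-1. Its genotypes were apart by less than the mutant arrays differed, the log2 difference was 0.28 ± 0.12 (SE), and the adjusted p was 0.50. AT2G22420 read 6.59 and 6.74 in wild type against 6.84 and 7.03 in rsa3-1, a difference of 0.27 ± 0.11 (SE; adjusted p = 0.51).

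PRX72 (AT5G66390), which takes part in lignification, lay on the other side. It read 8.78 and 8.69 in wild type against 8.38 and 8.62 in rsa3-1, a log2 difference of -0.24 with a 95% interval from -0.51 to 0.04 (adjusted p = 0.59). The genotypes did not overlap, but rsa3-1 replicate 2 was nearer to the wild type arrays than to the other mutant array. AT5G51890 had nearly equal values, 10.52 and 10.49 in wild type against 10.45 and 10.63 in rsa3-1, and a difference of 0.04 (95% interval -0.21 to 0.29). The 3 other measured genes of the list are AT4G36430, AT2G41480 (PRX25) and AT5G64120, with differences between -0.11 and -0.03. Members of the lignin list thus had values on both sides of 0 in the same arrays.

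AT5G58390 and AT3G28200 complete the members that were higher in value at an unadjusted p under 0.05. AT5G58390 read 4.87 and 4.80 in wild type against 5.27 and 5.65 in rsa3-1, a log2 difference of 0.63 ± 0.14 (SE), or 1.54-fold with a 95% interval from 1.23 to 1.93 (adjusted p = 0.13). Its wild type values agreed closely but are low and may be background, in which case the size of the difference is uncertain. Without rsa3-1 replicate 1 the difference was 0.81, and without rsa3-1 replicate 2 it was 0.44. In these fits the mutant spread drops out, and only the close wild type pair and other probe sets set the error. AT3G28200 read 8.31 and 8.42 in wild type against 8.60 and 8.62 in rsa3-1, a difference of 0.25 ± 0.10 (SE; adjusted p = 0.47). The genotypes were apart in this gene by a small margin, with the mutant arrays nearly equal.

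In the other direction, AT2G39040 had the smallest p of all members. It read 6.73 and 6.64 in wild type against 6.08 and 6.16 in rsa3-1, with means of 6.68 ± 0.06 and 6.12 ± 0.06 (SD, n = 2 each). The pairs of arrays were tight and well apart. The log2 difference was -0.56 ± 0.10 (SE), so the mutant level was 0.679 of the wild type level with a 95% interval from 0.577 to 0.798 (unadjusted p = 6.9e-04, adjusted p = 0.057). It passed with quantile normalization (adjusted p = 0.040), with the arrays at a common median (0.042), and where probe sets with a mean log2 value under 5 (0.039) or under 6 (0.031) were left out. With each array left out in turn the difference stayed between -0.60 and -0.51, while the adjusted p ran from 0.14 to 0.28. AT2G34060 read 5.67 and 5.86 in wild type against 5.35 and 5.56 in rsa3-1, a difference of -0.31 ± 0.12 (SE; adjusted p = 0.45).

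The other 3 of the 6 largest decreases in value came with low readings on every array. AT2G24800 read 4.46 and 4.30 in wild type against 3.98 and 3.97 in rsa3-1, a log2 difference of -0.41 ± 0.10 (SE; adjusted p = 0.21). AT2G43480 read 3.91 and 3.97 in wild type against 3.69 and 3.51 in rsa3-1, a difference of -0.34 ± 0.11 (SE; adjusted p = 0.33). AT3G03670 read 4.14 on both wild type arrays and 3.94 and 3.92 in rsa3-1, a difference of -0.21 ± 0.10 (SE; adjusted p = 0.54). In each the mutant arrays were the lower ones, but all 12 readings may be background. Of all 11 members with a mean below 5, 5 were above and 6 below 0 in their difference.

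**Figure D3:**
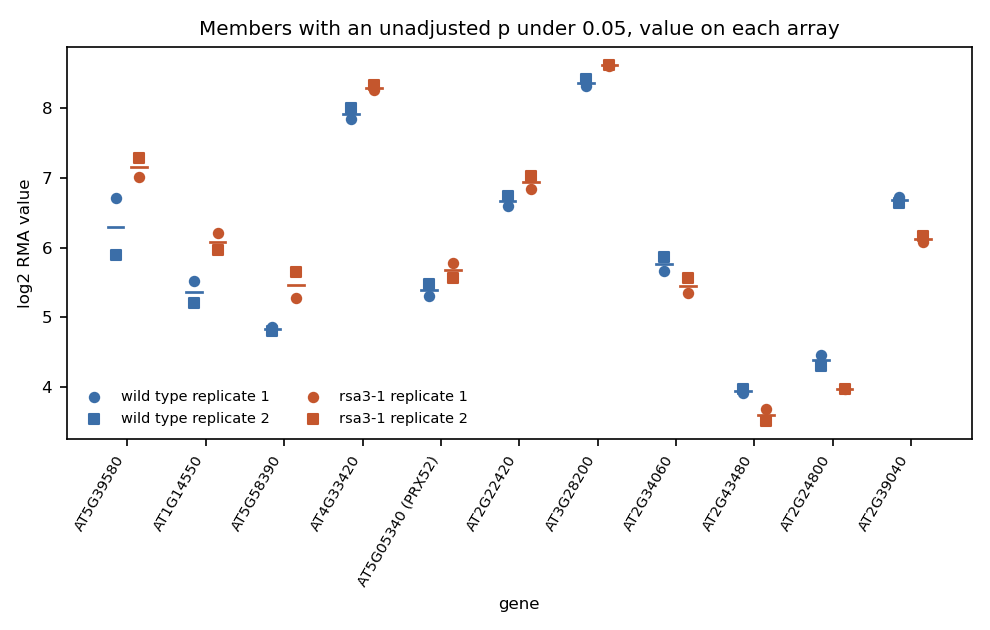
Log2 RMA value (vertical axis) of the 11 members with an unadjusted p under 0.05 on each of the 4 arrays, with circles for replicate 1, squares for replicate 2 and short lines at the genotype means. In each of these genes the 2 wild type and 2 rsa3-1 arrays do not overlap, and the wild type arrays of AT5G39580, at 6.71 and 5.89, lie furthest apart. The genes were selected by that p on these same arrays, so the lack of overlap is not separate evidence.

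**Figure D4:**
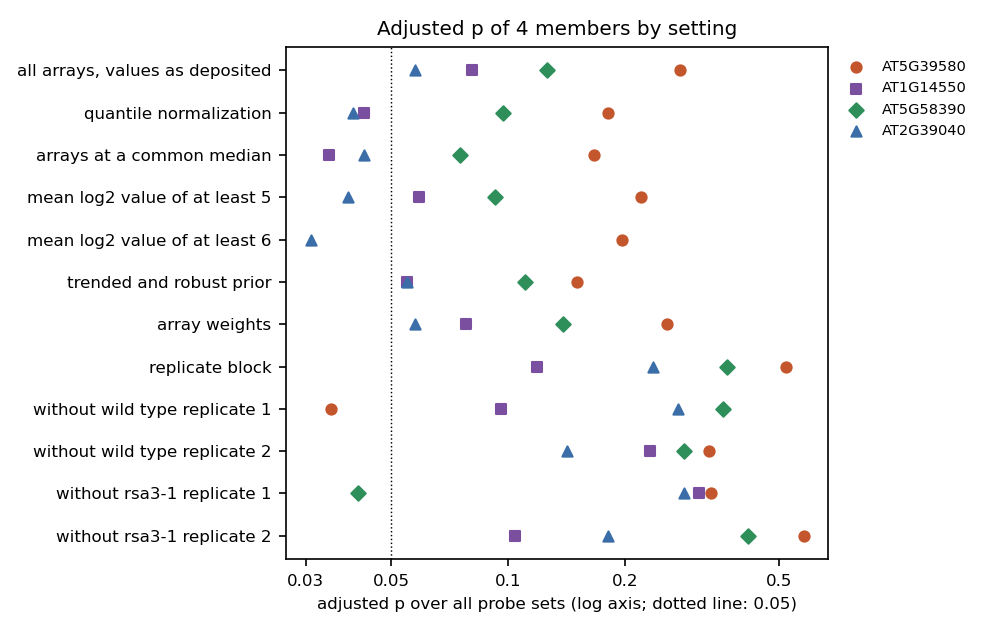
Adjusted p over all probe sets (horizontal log axis, dotted line at 0.05) of the 4 members that passed under at least 1 setting, for the values as deposited and each alternative; AT1G14550 and AT5G58390 have no point where probe sets under a mean of 6 were left out. None of the 4 passed with all arrays, all probe sets and the values as deposited, where AT2G39040 was nearest at 0.057. AT5G39580 and AT5G58390 passed only with 1 array left out, where the spread of that genotype drops out.

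Many members lie close together on a chromosome. The loci hold 11 such groups with 24 genes, neighbours in all but AT3G49110 and AT3G49120, which have 1 protein-coding gene between them. In 4 groups at least 2 genes were measured, 9 genes in all. In RefSeq order no protein-coding gene lies between the members of these 4 groups. AT5G58390 and AT5G58400 had values on opposite sides. The first was higher in rsa3-1 as given above, while AT5G58400 read 4.40 and 4.49 in wild type against 4.40 and 4.23 in rsa3-1, a log2 difference of -0.13. Their 95% intervals, 0.30 to 0.95 and -0.38 to 0.12, do not overlap, though the difference between the neighbours was not tested and AT5G58400 may be at background.

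The other 3 groups held small differences. In the pair on chromosome 4, Prx37 (AT4G08770), a vascular peroxidase whose overexpression dwarfs plants, read 7.54 and 7.38 in wild type against 7.57 and 7.56 in rsa3-1. Its neighbour AT4G08780 read 5.63 and 5.84 in wild type against 5.73 and 6.04 in rsa3-1. The log2 differences of this pair were 0.10 and 0.15, with 95% intervals from -0.14 to 0.35 and from -0.17 to 0.47. AT5G19880 and AT5G19890 were low on all arrays, between 3.61 and 4.26, and had differences of -0.05 and 0.20.

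The run of AT5G64100, AT5G64110 and PRX71 had log2 differences of 0.09, -0.06 and -0.11. AT5G64100 read 9.39 and 9.11 in wild type against 9.37 and 9.31 in rsa3-1, so the mutant arrays fell between the wild type ones. AT5G64110 read 5.22 and 5.27 in wild type against 5.28 and 5.10 in rsa3-1. All 3 overlapped between genotypes, and none of the 3 intervals reached past -0.45 or 0.38.

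**Figure D5:**
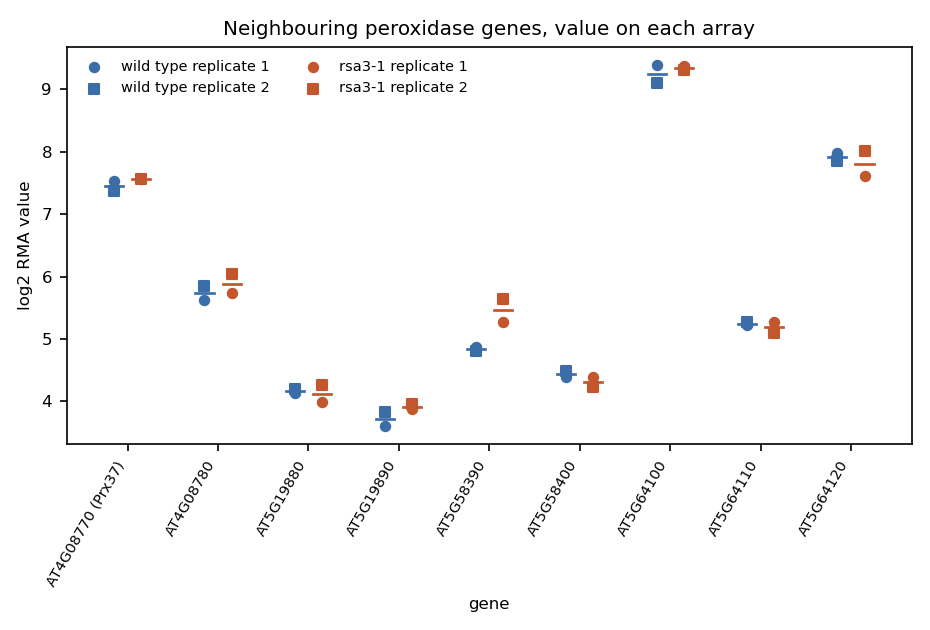
Log2 RMA value (vertical axis) of the 9 measured genes in 4 groups of neighbours, on each of the 4 arrays, with circles for replicate 1, squares for replicate 2 and short lines at the genotype means. AT5G58390 is set apart by its mutant arrays at 5.27 and 5.65, while its neighbour AT5G58400 overlaps between genotypes.

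The 6 members with the highest mean values were PRXR1, AT5G51890, AT1G71695, AT2G37130, AT4G30170 and AT3G21770, and their signals lie far above the bottom of the scale. PRXR1 (AT4G21960), which is strongly expressed across plant organs, read 12.80 and 12.83 in wild type against 12.75 and 12.80 in rsa3-1. Its log2 difference was -0.04, and the 95% interval ran from -0.27 to 0.18. AT1G71695 read 10.61 and 10.52 in wild type against 10.37 and 10.37 in rsa3-1, a difference of -0.20 with an interval from -0.43 to 0.03. Both mutant arrays were lower in AT1G71695, but it did not pass (adjusted p = 0.59). AT4G30170 read 10.40 and 10.21 in wild type against 10.52 and 10.44 in rsa3-1, a difference of 0.18 with an interval from -0.08 to 0.43. AT2G37130 was at 10.50 and 10.26 in wild type against 10.42 and 10.45 in rsa3-1, and AT3G21770 at 9.72 and 9.63 against 9.70 and 9.74. Both overlapped, with differences of 0.06 and 0.05.

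Other roles in the family had 1 to 3 measured genes. For seed coat mucilage, PER36 (AT3G50990), which acts in mucilage release, differed by 0.05 at readings between 3.90 and 4.18 that may be background. AT1G44970, listed for pollen and the tapetum, differed by -0.02. Without wild type replicate 1 these were -0.08 and 0.05. Of 3 genes listed for cell elongation and root growth, AT4G11290, AT5G17820 and Prx37, the log2 differences ran from -0.20 to 0.10. An unadjusted p under 0.05 was found for 0 of 3, beside 9.68% of all probe sets. Without wild type replicate 1, AT4G11290 went from -0.11 to 0.09 and AT5G17820 from -0.20 to -0.07. RCI3, the member listed for cold, drought and salt, was not analysed here.

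The shared probe sets report on a pair of genes that cannot be told apart. The one for AT4G37520 and AT4G37530 read 8.22 and 8.22 in wild type against 8.60 and 8.51 in rsa3-1, a log2 difference of 0.34 ± 0.10 (SE; unadjusted p = 0.010, adjusted p = 0.29). The wild type arrays were nearly equal there and both mutant arrays were higher. For AT2G18140 and AT2G18150 the values were 8.29 and 8.40 in wild type against 8.21 and 8.69 in rsa3-1, with a difference of 0.11. For AT2G38380 and AT2G38390 they were 10.20 and 10.36 in wild type against 10.27 and 10.46 in rsa3-1, with a difference of 0.08. Both of these overlapped between genotypes.

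The arrays of a genotype also differed among themselves. In rsa3-1, 30 of the 45 members were higher in replicate 2 than in replicate 1, 66.7% against 44.9% of all probe sets. Among the 34 members with a mean of at least 5 it was 26, or 76.5% against 47.0% of all such probe sets. In wild type, 23 members were higher in replicate 1 and 22 in replicate 2. The median distance between replicates was 0.123 in wild type and 0.102 in rsa3-1 for the members, and 0.123 and 0.110 for all probe sets. So the members' replicates were about as far apart as those of other probe sets, with a shared tilt toward rsa3-1 replicate 2.

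The remaining 13 loci of the family, root hair genes among them, had 10 measured genes. Of these 10, 0 passed, where 1.13% of all probe sets did. The log2 differences of the 10 ran from -0.39 to 0.22 with a median of -0.17. Of the 10, 8 lay below 0, against 22 of 45 here, where 47.1% of all probe sets lay above 0. At an unadjusted p under 0.05 there were 2 of 10, both lower, where 9.68% of all probe sets had such a p and 5.05% were lower. They were AT4G33870 at -0.39 and AT1G34510 at -0.27 (adjusted p = 0.45 and 0.50), and AT1G77100 came next at -0.19. Without wild type replicate 1 the differences were -0.22 for AT4G33870, -0.17 for AT1G34510 and -0.18 for AT1G77100. AT4G33870 and AT1G77100 had means of 4.74 and 3.37, so their readings may be background, while AT1G34510 had a mean of 6.52. Whether these loci differ from the 45 was not tested.

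Few of the genes that work with the peroxidases have a probe set naming them alone, and others may be on unnamed probe sets. In each list 0 passed, where 1.13% of all probe sets did. Of 10 NADPH oxidases 3 were measured, AT1G19230, AT4G25090 and AT4G11230, with log2 differences of 0.07, 0.03 and -0.02. AT4G11230 read between 3.26 and 3.41 and AT4G25090 between 4.79 and 5.05, and these readings may be background. Of 18 monolignol genes 2 were measured. HCT, the shikimate hydroxycinnamoyl transferase, read 10.68 and 10.44 in wild type against 10.47 and 10.61 in rsa3-1, a difference of -0.02, and the cinnamoyl-CoA reductase CCR2 differed by -0.07. Laccases, the other lignin-polymerising oxidases, had 1 of 17 measured, LAC16 at -0.13, with readings between 3.38 and 3.74 that may be background. Of the enzymes that remove hydrogen peroxide inside the cell, 2 of 19 were measured, the ascorbate peroxidases SAPX at -0.13 and TAPX at -0.02. The extensin HRGP1 (1 of 5 listed genes measured) differed by -0.14.

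For the Casparian strip and suberin, 2 of 15 genes were measured and both were lower in value. AT1G61590 read 7.60 and 7.14 in wild type against 6.68 and 7.04 in rsa3-1, a log2 difference of -0.50 ± 0.18 (SE; unadjusted p = 0.025, adjusted p = 0.41). GSO1, the receptor kinase that monitors the Casparian strip, differed by -0.25 and overlapped between genotypes. Without wild type replicate 1 the differences were -0.27 for AT1G61590 and -0.02 for GSO1. Of the 4 regulators listed 2 were measured. UPB1, a transcription factor that represses peroxidase genes in the root elongation zone, read 5.55 and 5.68 in wild type against 5.62 and 5.78 in rsa3-1, a difference of 0.08, and AT5G47390 differed by 0.09. UPB1 thus showed overlapping values in the 2 genotypes.

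Because many members are root genes, tissue markers were read beside them. Root hair markers had 2 of 4 measured, EXPA18 at -0.37 and EXPA7 at -0.28 (-0.25 and -0.26 without wild type replicate 1). The size for EXPA7 rests on the mutant array used, at -0.08 without rsa3-1 replicate 1 and -0.48 without rsa3-1 replicate 2. EXPA18 was at -0.37 and -0.38 there. Summed log2 values of the root hair markers were 14.3 and 14.0 in wild type against 13.3 and 13.7 in rsa3-1. The root gene PYK10, 1 of 1, differed by -0.11 with values of 13.4 and 13.5 in wild type against 13.4 and 13.4 in rsa3-1. Photosynthetic shoot markers had 4 of 6 measured, all above 0, with log2 differences of 0.28 for HPR, 0.11 for PSBW and 0.05 for RCA. Their summed log2 values were 51.3 and 51.4 in wild type against 51.8 and 51.9 in rsa3-1. No marker passed (adjusted p from 0.33 to 0.96), where 1.13% of all probe sets did. EXPA18 and HPR had an unadjusted p under 0.05, as did 9.68% of all probe sets. The part of tissue proportions in the members' differences was not tested. The markers listed for endodermis, xylem and seed likewise lack a named probe set and were not analysed here.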

How the data were processed

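The deposited values are log2 values per probe set made with RMA (background correction, between-array normalization, summary over probes), per the submitters' processing notes. The sources used here give neither a software version nor the probe set definition. They were used as deposited. RMA compresses differences among dim probe sets, and its between-array step removes a change shared by most transcripts. The 64 array controls were left out and 22746 probe sets tested.

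Genes were named from the platform annotation through RefSeq identifiers, taking the brightest probe set where a gene has several. limma 3.58.1 in R 4.3.3 (lmFit, eBayes, two-sided, 5.35 prior degrees of freedom) compared rsa3-1 with wild type on all 4 arrays, with Benjamini-Hochberg adjustment over all probe sets, threshold 0.05; intervals are limma's 95% intervals. The number of arrays limits the precision. Figures used Python 3.11.15 and matplotlib 3.10.9. In 10 simulated data sets of these 22746 probe sets, 200 were changed in each. The fit recovered 21.9% of changes of 1.5-fold, 91.9% of those of 2-fold and 99.8% of those of 4-fold, with 4.34% false calls. These rates hold for that number of changes.

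The members and lists were chosen with earlier results of these data known. Members named are those with an unadjusted p under 0.05, the 6 largest differences each way, the 6 of highest mean, neighbours in groups with 2 or more measured genes, and those called under any alternative. From the related lists up to 3 genes of smallest p are named. A few further members were named for their listed role after their values were seen: AT4G36430, AT2G41480, AT3G50990, AT1G44970, AT4G11290 and AT5G17820. Alternatives were other scalings, a minimum mean value, a trended and robust variance prior, weighted arrays, a replicate block and leaving out each array.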

Additional observations from a re-analysis of the deposited data

How the results depend on the processing

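The count of 0 members called in limma (11 at an unadjusted p under 0.05) became 2 with quantile normalization and 2 with arrays at a common median (AT1G14550 higher and AT2G39040 lower in both), and 1 when probe sets with a mean under 5 or under 6 were left out (AT2G39040, with 34 and 27 members tested). It was 0 with trended and robust variance, with array weights and with the replicate block, and 0 to 1 with each array left out, the 1 being AT5G39580 without wild type replicate 1 and AT5G58390 without rsa3-1 replicate 1. Averaging the probe sets of a gene changed nothing, since each member has 1. The related lists stayed at 0 calls under each of these but that averaging, which was run for the members alone. The members' median of 0.02 ran from -0.03 to 0.07 with each array left out and was -0.02 with the filter at 6. Over all probe sets the 256 calls became 325 with quantile normalization, 333 at a common median, 352 with trended and robust variance, 262 and 207 with the filters at 5 and 6, 251 with array weights, 42 with the replicate number as a block and 102 to 222 with each array left out (the lone array is then assumed to vary like the other genotype). Arrays of the same number deviated from their genotype means with a correlation of 0.013 across probe sets, and the labels do not pair them, so the labels give no basis for the block. Of the members named by the fixed rule, none turned direction under either scaling. The filters, variance model, weights and block left each difference itself unchanged, so they could not turn a direction. With each array left out, 7 near 0 turned, with ranges of -0.00265 to 0.306 for AT4G08780, -0.0490 to 0.234 for AT5G64100, -0.0579 to 0.175 for AT2G37130, -0.0564 to 0.130 for AT5G51890, -0.185 to 0.0856 for AT5G19880, -0.146 to 0.0304 for AT5G64110 and -0.310 to 0.0867 for PRX71 (AT5G64120). Of the 6 members named for their role, 4 turned, with ranges of -0.311 to 0.0897 for AT4G11290, -0.176 to 0.126 for AT1G44970, -0.0836 to 0.192 for AT3G50990 and -0.0791 to 0.0230 for AT4G36430. Where genotypes do not overlap, leaving out an array cannot turn a direction. Why calls differ between settings was not tested.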
